A study of Mus musculus with 4 samples.

Results

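Immediate early genes are switched on within minutes of a stimulus by factors that are already in the cell, without new protein synthesis. Many encode transcription factors, and others encode the phosphatases and RNA-decay factors that shut the response off again. Enzymatic release of cells from a solid tissue is a stimulus of this kind, and it also induces heat-shock genes, whose products refold damaged proteins. The 36 genes described here, chosen by symbol from the 32286 genes of the count matrices, were placed in 4 groups by role. These were 9 AP-1 factors and partners (Fos, Fosb, Fosl1, Fosl2, Jun, Junb, Jund, Atf3 and Maff), 10 other factors (Egr1, Egr2, Egr3, Nr4a1, Nr4a2, Nr4a3, Klf2, Klf4, Klf6 and Csrnp1), 12 genes of feedback and growth restraint (Ier2, Ier3, Ier5, Ier5l, Btg1, Btg2, Zfp36, Zfp36l1, Dusp1, Dusp2, Rhob and Gadd45b) and 5 heat-shock genes (Hspa1a, Hspa1b, Dnajb1, Hsph1 and Hsp90aa1). All 36 symbols named a gene in each of the 4 libraries.

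The cells were tdTomato-positive (tdTom+) cells sorted from thoracic to lumbar vertebrae after digestion with collagenase and dispase at 37 °C, in steps of 20, 10 and 20 min, followed by 30 min with antibodies on ice. Control mice were Prss56 Cre/+, R26 tdTom/tdTom and Nf1 +/+, and mutant mice were Prss56 Cre/Cre, R26 tdTom/tdTom and Nf1 fl/fl. Both therefore carried the Cre and the reporter, which mark cells that expressed Prss56 and their descendants. Mutants had 2 Cre alleles and controls 1, so that Cre dose and Nf1 genotype cannot be told apart. A single library was made per genotype and age, and values are given below in the order control then mutant at 3 months, control then mutant at 12–16 months. The sources used here do not say how many mice each library holds, and the time from death to lysis of each library is not given, so handling and genotype or age cannot be told apart. No test between libraries was made, since each genotype and age has 1 library. Cells bearing CD11b, CD31 or CD45 and dead cells had been gated out by the sort.

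Of 2172 barcodes, 1757 passed the filters (more than 750 UMIs, more than 500 genes, less than 7% mitochondrial UMIs), 717, 484, 135 and 421 in library order, with medians of 11467, 12644, 11702 and 8189 UMIs. A UMI is a molecular identifier that counts 1 captured RNA. No barcode was shared between libraries. Nf1, the floxed gene, was at 131, 150, 147 and 125 CPM (counts scaled to the same UMI total), a check of limited use since a 3′ tag need not lie in the deleted part. Cells were assigned by gates on a few genes, applied in this order: endplate cells carried Sox9 and at least 3 UMIs of Zfp804b and Dab1, other cartilage cells carried Sox9 and at least 3 UMIs of Acan, bone/stroma cells carried Runx2 and at most 2 UMIs of Acan, mural cells had at least 3 UMIs of Rgs5 and Myh11, and blood cells carried Ptprc. Other cartilage held 532, 235, 78 and 220 cells, endplate 30, 142, 12 and 38, bone/stroma 45, 39, 26 and 83, mural 8, 19, 2 and 19 and blood 12, 18, 0 and 23. Of the endplate cells, 30, 142, 11 and 38 also met the conditions for other cartilage. For some markers that the gates did not use, levels in the gate that their names point to are given next, without a comparison between gates. Not every marker followed its name, since Dcn, listed as a fibroblast marker, was also high in other cartilage (values below). Col2a1, the main cartilage collagen, was at 3318 to 3582 CPM in other cartilage, Acta2, a contractile actin, at 6504 to 10264 CPM in mural cells, and Col1a1, the bone collagen, at 5674 to 102798 CPM in bone/stroma. The bone/stroma gate of the 3-month mutant library went against its label in part, since 23 of its 39 cells also carried Ptprc, against 1, 2 and 7 cells in the other three libraries, and its Col1a1 level was the lowest. Values without them are given beside the bone/stroma results that they change most.

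Promoter sequences of the members that carry the results below are shown first. They are the 250 bases before the annotated start, 5′ to 3′ on the gene's strand, from RefSeq on GRCm38.p6, which listed a promoter for 31 of the 36 members. Egr1, Egr3, Ier2, Fosl1 and Hsp90aa1 had none there, so no motif was searched in them. Hspa1a and Hspa1b encode the same inducible Hsp70 and lie beside each other on the minus strand of chromosome 17 (chr17:34972157-34972406 and chr17:34959239-34959488). Their promoters were identical at 98.8% of bases, and the 3 differing bases are in capitals.
Hspa1a: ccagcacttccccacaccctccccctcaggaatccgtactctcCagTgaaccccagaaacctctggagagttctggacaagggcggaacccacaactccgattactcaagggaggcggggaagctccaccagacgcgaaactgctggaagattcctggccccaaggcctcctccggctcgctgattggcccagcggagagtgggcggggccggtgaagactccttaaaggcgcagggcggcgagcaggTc
Hspa1b: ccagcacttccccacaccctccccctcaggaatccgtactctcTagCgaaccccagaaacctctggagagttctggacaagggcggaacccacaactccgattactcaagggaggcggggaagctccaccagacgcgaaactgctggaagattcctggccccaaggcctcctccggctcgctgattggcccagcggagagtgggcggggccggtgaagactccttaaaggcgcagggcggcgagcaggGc

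The next promoter is of Hsph1, an Hsp110 chaperone that exchanges the nucleotide of Hsp70, at chr5:149636337-149636586 on the minus strand. Capitals mark TTCNNGAA, inverted units of the kind that heat-shock factor binds, searched on both strands. It was found at this strictness in 8.11% of 27025 genes with a promoter and in 2 members, Hsph1 and Egr2. The other arrangement, GAANNTTC, was found in 7.73% of genes and in 5 of the 31 members, Hspa1a, Hspa1b, Jun, Fosl2 and Ier5l.
Hsph1: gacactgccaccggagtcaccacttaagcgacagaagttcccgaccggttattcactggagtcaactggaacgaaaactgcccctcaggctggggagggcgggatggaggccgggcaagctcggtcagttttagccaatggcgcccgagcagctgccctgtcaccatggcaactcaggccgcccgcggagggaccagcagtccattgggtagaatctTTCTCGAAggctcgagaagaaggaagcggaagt

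Fos, Atf3 and Dusp1 are shown as AP-1 and feedback genes of the comparisons below whose promoters hold TGACGT. Capitals mark TGACGT on either strand, the core of a cAMP response element. The promoters of Junb and of the heat-shock gene Dnajb1 were searched too, matched none of the motifs given here, and are not printed. TGACGT was found in 7.29% of genes and in 8 of the 31 members. These were Fos, Atf3 and Maff among the AP-1 genes, Egr2 and Nr4a3, and Btg1, Btg2 and Dusp1. Its palindrome TGACGTCA, which contains it, was found in 1.77% of genes and in Dusp1, Btg2 and Maff. The AP-1 motif TGANTCA was in 7.82% of genes and 2 members (Zfp36l1 and Csrnp1), and the CArG box of serum response factor in 1.62% of genes and 2 members (Egr2 and Zfp36). A match describes these letters only, and no match says nothing about a factor outside the window.
Fos, plus strand, chr12:85473640-85473889: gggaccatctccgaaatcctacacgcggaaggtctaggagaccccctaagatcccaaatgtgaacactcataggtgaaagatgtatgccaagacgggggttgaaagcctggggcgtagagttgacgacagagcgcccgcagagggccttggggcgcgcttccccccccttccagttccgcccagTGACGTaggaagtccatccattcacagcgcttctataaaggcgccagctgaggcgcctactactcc
Atf3, minus strand, chr1:191183334-191183583: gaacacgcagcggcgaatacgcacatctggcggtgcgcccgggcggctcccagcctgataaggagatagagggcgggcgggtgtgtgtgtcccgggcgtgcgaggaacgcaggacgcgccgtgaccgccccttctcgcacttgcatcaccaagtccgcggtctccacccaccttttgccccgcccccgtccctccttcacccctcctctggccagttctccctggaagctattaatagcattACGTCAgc
Dusp1, minus strand, chr17:26508473-26508722: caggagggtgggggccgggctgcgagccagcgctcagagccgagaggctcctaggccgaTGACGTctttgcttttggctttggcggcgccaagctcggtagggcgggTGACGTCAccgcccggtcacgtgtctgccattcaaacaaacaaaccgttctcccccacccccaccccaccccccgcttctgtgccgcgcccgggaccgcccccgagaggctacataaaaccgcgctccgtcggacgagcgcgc

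The 36 genes made up a few percent of all UMIs in the cartilage gates and less in the bone/stroma, mural and blood gates. Over all passing cells of a library they took 3.16%, 1.98%, 1.76% and 1.55% of UMIs. In other cartilage they took 3.47%, 2.71%, 2.94% and 2.28%, in endplate 2.73%, 1.74%, 1.16% and 1.38%, and in bone/stroma 1.08%, 0.786%, 0.333% and 0.372% (1.08%, 0.486%, 0.296% and 0.355% without the cells carrying Ptprc). Mural cells had 0.918%, 0.347%, 0.304% and 0.512%, and blood cells 0.393%, 0.825% and 0.672% in the 3 libraries that held any. Within each of the 4 libraries other cartilage was the highest of the gates. The gap was smallest against endplate, where other cartilage was 1.27, 1.55, 2.53 and 1.65 times higher, and it was 3.22, 3.45, 8.83 and 6.14 times against bone/stroma (3.21, 5.57, 9.95 and 6.43 times without the cells carrying Ptprc). Cells were not matched for depth here, and the gap against endplate was narrower among cells above 15000 UMIs (values below). The 95% intervals of these ratios were narrow (1.54 to 1.57 for 3-month mutant endplate), but every interval in the text reflects counting error alone, and cells, mice and libraries add to it.

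The spread between cells was wide. Single other cartilage cells of the 3-month control library ranged from 0.121% to 17.7%, with a median of 3.52%, and those of the 12–16-month mutant library from 0.149% to 14.2%, with a median of 1.46%. The medians in the other two libraries were 2.37% (3-month mutant) and 2.01% (12–16-month control). The tenth and ninetieth percentiles of 0.897% and 7.86% in the first library and 0.351% and 6.70% in the last overlapped over most of their length. Every library thus held cells with a low and cells with a high share, and the medians differed more between libraries than the ninetieth percentiles did.

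**Figure D1:**
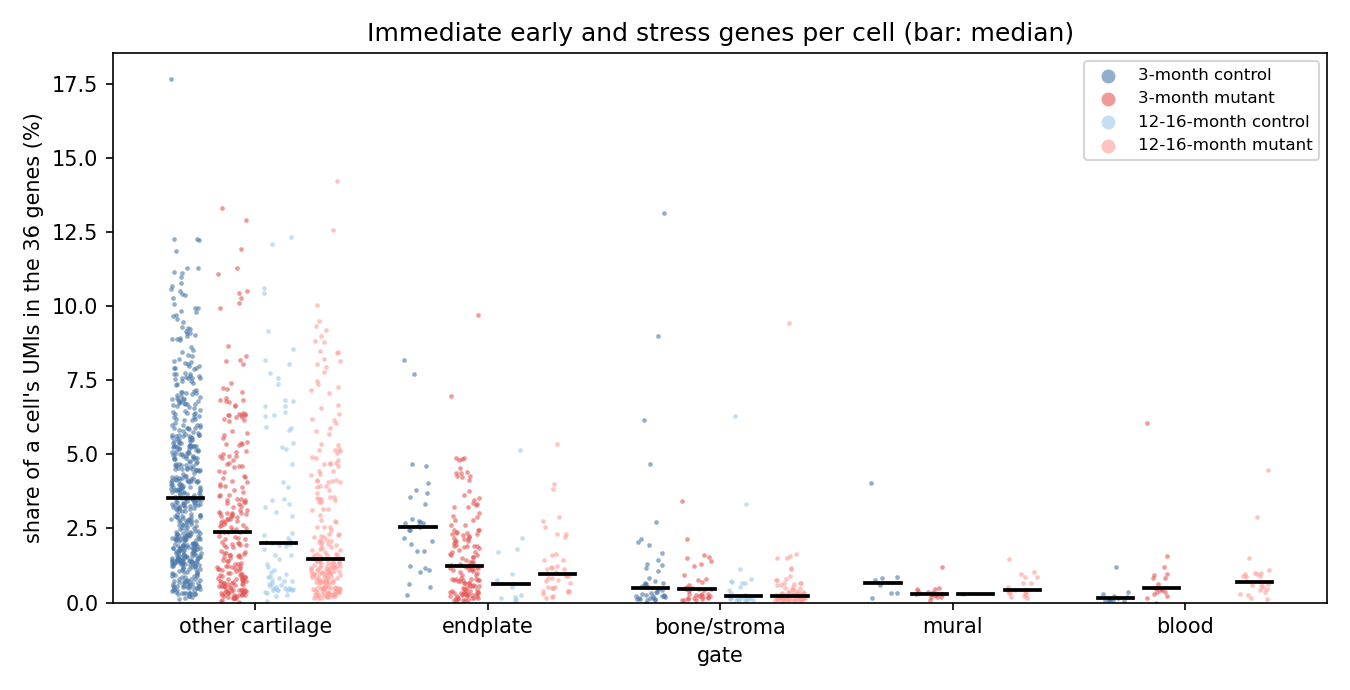
Share of each cell's UMIs that fell in the 36 genes (y axis, percent), by gate (x axis) and library (color), with 1 point per cell and a bar at the median. Other cartilage cells reach from near 0 to above 10% in each library, while the medians of bone/stroma, mural and blood cells stay under 1%.

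The share also moved with depth. In other cartilage of the 3-month control library, cells with up to 5000 UMIs had a pooled share of 6.43% (26 cells), those above that and up to 15000 UMIs 4.24% (324 cells) and those above 15000 UMIs 2.80% (182 cells). The 3-month mutant (5.35%, 3.25% and 2.10%) and the 12–16-month mutant library (3.37%, 2.48% and 1.72%) had the same order, and the 12–16-month control library did not, since its 8 shallowest cells were at 1.17%. Over cells, Spearman's rho of the share with the UMI total was -0.37, -0.29, -0.07 and -0.16 (n = 532, 235, 78 and 220), given as a description since the total is the denominator of the share. Endplate cells were deeper, with medians of 17649, 17606, 26898 and 19527 UMIs against 12581, 11380, 10287 and 7614 in other cartilage. Above 15000 UMIs the pooled share was still higher in other cartilage in each library, by less. It was 2.80% against 2.63% in endplate of the 3-month control and 1.96% against 1.16% in the 12–16-month control library. Per-cell medians there were 2.21%, 0.988%, 1.16% and 1.15% in other cartilage and 2.51%, 1.53%, 0.637% and 1.21% in endplate. By the median, endplate was higher in all but the 12–16-month control library.

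AP-1 factors and their partners held the most UMIs of the 4 roles in other cartilage, with 1.83%, 1.29%, 1.58% and 1.18% of all UMIs. AP-1 is a dimer of a Fos and a Jun protein, and Atf3 and Maff are related leucine-zipper factors. In other cartilage Fos stood at 6555, 4486, 5205 and 3906 CPM. Junb was at 4171, 2876, 3786 and 2648 CPM and Jund at 2764, 2142, 3020.5 and 2282 CPM. For each of these genes both control libraries were above both mutant libraries. With Dusp1 and Egr1 they held the most UMIs of all members in every library (3′ tags, 1 per captured molecule, with no length correction) and gave 50.5%, 46.8%, 54.2% and 50.8% of the list's UMIs there. The AP-1 factor Fosl1 was nearly silent, with 76, 9, 7 and 3 UMIs.

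Among the other factors, Egr1, a zinc-finger factor driven by MAPK signaling, led with 2020, 1600, 2217 and 1440.5 CPM in other cartilage. Klf2 (1800, 1376, 1047 and 997 CPM) and Klf4 (1127, 1156, 959 and 683 CPM), a pair of Krüppel-like factors, followed. Egr2, Egr3 and Nr4a3 did not exceed 32.9 CPM. In the feedback group Dusp1, the phosphatase that inactivates MAP kinases, led with 2021, 1559, 1719 and 1311 CPM. Zfp36, which binds AU-rich messages and speeds their decay, was at 849, 667, 1052 and 862 CPM. Dusp2, a related phosphatase, had 0 UMIs in other cartilage of every library, which allows at most 3 of 13811528 UMIs.

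**Figure D2:**
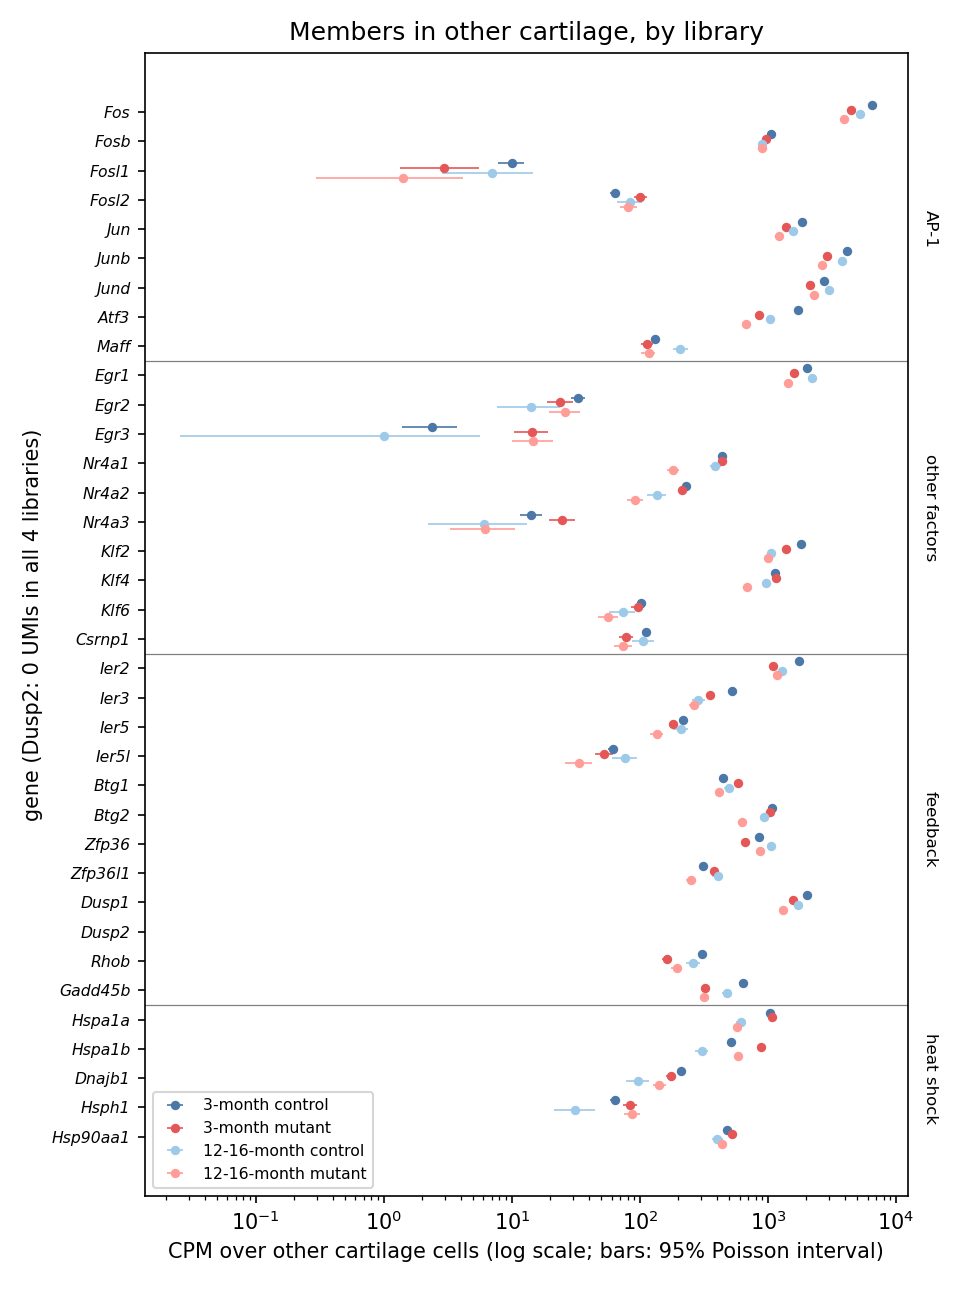
CPM of each member over the other cartilage cells of a library (x axis, log scale), with 95% Poisson intervals and 1 color per library, in 4 blocks by role. Most AP-1 and feedback genes lie lower in the mutant library (red) than in the control library (blue) of the same age, and Hspa1b and Hsph1 lie higher.

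The members varied together from cell to cell, the heat-shock genes less closely. Spearman's rho between the shares of the AP-1 group and of the other factors was 0.90, 0.90, 0.92 and 0.88 over the other cartilage cells of the 4 libraries (n = 532, 235, 78 and 220), and that with the feedback group was 0.90, 0.89, 0.90 and 0.89. Between the AP-1 and the heat-shock groups it was 0.39, 0.68, 0.58 and 0.54. In the 30 endplate cells of the 3-month control library the latter was -0.11, against 0.63 in the 142 of the 3-month mutant library. At 12–16 months the order was the opposite, with 0.84 in 12 control and 0.47 in 38 mutant endplate cells. These values describe cells of 1 library that share its depth and handling, and shares of the same total.

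Single members followed the list unequally. Among the 30 members with a UMI in at least 20% of other cartilage cells of each library, the lowest rho over the 4 libraries between a gene and the list was highest for Junb (0.87), Fos (0.85), Egr1 (0.83), Atf3 (0.76) and Zfp36 (0.75), although each of these is part of the list's total. The lowest rho was smallest for Klf6 (0.07), Ier5l (0.09), Hspa1b (0.15, with up to 0.55 in another library) and Fosl2 (0.17). In the 12–16-month mutant library Ier5l, Klf6 and Fosl2 had UMIs in 20.0%, 30.5% and 44.1% of cells. The effect of such sparse counts on rho was not tested. Of 4786 genes outside the list that passed the same detection limit, those most like it included Socs3, an inhibitor of cytokine signaling (0.76), Nfkbia, the inhibitor of NF-κB (0.64), Nfkbiz (0.61) and Pnrc1 (0.61), as well as Irf1, Mcl1, Ifrd1, Ppp1r15a and Cebpb at 0.52 to 0.56. Socs3, Nfkbia, Nfkbiz, Irf1, Mcl1, Ppp1r15a and Cebpb stand in the list of further immediate early genes used below.

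To ask how the list differed between cell gates, UMIs were summed per library and gate and tested within libraries with edgeR's quasi-likelihood test, with p-values adjusted by Benjamini-Hochberg over 10961 genes. The replicate here is the library, with 18 sums in the fit, and the mural sum of the 12–16-month control library, of 2 cells, was left out of it. Fosl1 was filtered out for low counts, and 35 members were tested. Log2 values below are the gate over other cartilage, ± standard error. The standard error is approximate, being the absolute log2 value divided by the square root of the test's F statistic.

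In endplate cells 13 of the 35 members were lower than in other cartilage and none was higher, where 7.49% of all genes were called lower and 6.16% higher. The median member differed by -0.99, against -0.02 over all genes. Maff, a small Maf factor that lacks a transactivation domain, changed most. It had 132, 114, 207 and 117 CPM in other cartilage and 24.2, 3.23, 3.00 and 2.68 CPM in endplate. The groups did not overlap, and the difference was -4.47 ± 0.54 (edgeR, adjusted p = 5.76e-05). Atf3, a repressor of the ATF family induced by many stresses, had 1715, 853, 1029 and 670 CPM in other cartilage against 453, 159, 6.01 and 115 CPM in endplate (-3.21 ± 0.91, edgeR, adjusted p = 0.0257). Csrnp1, a cysteine- and serine-rich nuclear factor, had 113, 78.4, 106 and 73.8 CPM against 21.0, 21.6, 6.01 and 16.1 CPM (-2.56 ± 0.39, edgeR, adjusted p = 0.000309). Ier5, a regulator of heat-shock factor 1, had 215, 183, 208 and 136 CPM against 127, 16.5, 6.01 and 46.8 CPM (-2.37 ± 0.53, edgeR, adjusted p = 0.00661). In the 12–16-month control library, with 12 endplate cells, the values rest on 2 UMIs each of Atf3, Csrnp1 and Ier5 and 1 of Maff. For these 4 genes every endplate value lay below every other cartilage value, but they were named because their differences were the lowest. The share of all genes without overlap between gates was not computed, here or for the members below.

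The other members called lower in endplate were Gadd45b, Klf2, Klf4, Ier3, Dusp1, Nr4a2, Rhob, Nr4a1 and Jund, with values from -2.23 to -1.18. Dusp1 was at 618, 470, 327 and 471 CPM in endplate (-2.00 ± 0.37), Klf4 at 360, 189.7, 264 and 289 CPM (-2.03 ± 0.48) and Jund at 2422, 1164, 757 and 1115 CPM (-1.18 ± 0.34). For Dusp1 and Klf4 the gates did not overlap, while Jund in 3-month control endplate was above the other cartilage of both mutant libraries. Rhob, a small GTPase, was at 153, 56.4, 60.1 and 64.2 CPM, Nr4a1 at 339, 207, 72.1 and 104 CPM and Nr4a2 at 82.2, 79.4, 30.0 and 38.8 CPM. By role, 3 of 8 AP-1 genes, 5 of 10 other factors, 5 of 12 feedback genes and none of the 5 heat-shock genes were called. Fos itself did not pass the test, at 4632, 2005, 1433 and 1821 CPM in endplate (-1.34 ± 0.58, edgeR, adjusted p = 0.145). It was below other cartilage in each library, and endplate of the 3-month control library overlapped other cartilage of the mutant libraries. Jun (-0.13), Ier2 (-0.28) and Btg2 (0.25) had values near 0. The 5 heat-shock genes, at -0.86 for Hspa1a to 0.65 for Dnajb1, had a median of 0.18. Hspa1a was at 730.4, 715, 342 and 353 CPM, Hspa1b at 582, 907, 388 and 549.9 CPM and Dnajb1 at 408, 455, 207 and 116 CPM in endplate. Hsph1 was at 80.6, 135, 69.1 and 93.7 CPM and Hsp90aa1 at 624, 871, 433 and 524 CPM. Each overlapped its range in other cartilage.

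The count in endplate depended on single libraries and on depth. No member was higher there at an unadjusted p under 0.05 either, or by DESeq2, and the same held for mural cells. With no filter on low counts Egr3 was called higher in endplate (1.34, edgeR, adjusted p = 0.0179) and 18 members lower (1013 and 1202 of 23307 genes). Without the 12–16-month control library, with 12 endplate cells, 6 members were called lower (504 of 10799 genes). Without the 12–16-month mutant library 8 were (504 of 11128 genes). Among cells above 15000 UMIs in both gates, a setting chosen after seeing the data, 4 of 34 members were called lower (Maff, Csrnp1, Dusp1 and Rhob), where 353 of 8288 genes were, and the median member differed by -0.65.

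Outside cartilage most of the list was lower. In bone/stroma 28 of 35 members were lower and 1 was higher (15.1% and 17.6% of all genes), with a median member at -2.37 against 0.08 over all genes. In mural cells 25 were lower and none was higher (13.4% and 10.1% of genes), with a median of -2.70 against -0.24. In blood cells 23 were lower and 1 was higher (20.3% and 12.5% of genes), with a median of -2.18 against -0.29. Without the 12–16-month mutant library 13 were lower in blood and 1 was higher (1152 and 676 of 11128 genes). All 8 tested AP-1 genes were lower in bone/stroma, and 7 of the 8, all but Fosl2, in mural and in blood cells.

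Fos had 1653, 458, 341 and 270 CPM in bone/stroma, far below its range in other cartilage (-3.31 ± 0.63, edgeR, adjusted p = 0.000594). Mural cells had 685, 106, 183 and 443 CPM of Fos and blood cells 99.5, 645 and 583 CPM. Dusp1 was at 129, 116, 74.6 and 90.8 CPM in bone/stroma (-4.19 ± 0.40, edgeR, adjusted p = 9.67e-07), at 158, 132, 30.4 and 116 CPM in mural cells (-4.10 ± 0.48, adjusted p = 8.58e-06) and at 0, 151 and 143 CPM in blood cells (-4.17 ± 0.49, adjusted p = 1.20e-05). Its lowest value in other cartilage was 1311 CPM, so that no library of the other gates came near it. The first blood value rests on 12 cells with 20102 UMIs in the 3-month control library, where 0 UMIs allow up to 184 CPM. Egr1 was at 764, 323, 219.6 and 321 CPM in bone/stroma and at 443, 35.3, 152 and 263 CPM in mural cells, also with no overlap.

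Further members stood out by gate. In bone/stroma Csrnp1 (15.2, 4.64, 1.41 and 1.03 CPM, -4.38 ± 0.45), Atf3 (378, 25.5, 32.4 and 9.29 CPM, -4.28 ± 0.96) and Maff (15.2, 6.96, 4.22 and 10.3 CPM, -4.13 ± 0.51) differed most, with edgeR adjusted p of 1.95e-06, 0.00231 and 1.13e-05. In mural cells Ier2, an early nuclear regulator, was at 84.3, 8.83, 0 and 44.9 CPM (-5.68 ± 0.79, edgeR, adjusted p = 5.14e-05), against at least 1090.5 CPM in other cartilage. Atf3 was at 31.6, 83.9, 60.9 and 25.7 CPM in mural cells (-5.20 ± 1.23) and at 0, 362 and 13.4 CPM in blood cells (-3.74 ± 1.13). Nr4a2, an orphan nuclear receptor, had UMIs in 1 of the 4 mural libraries (42.2 CPM in the 3-month control library). Each mural value of 0 in the 12–16-month control library, with 2 cells, allows up to 112 CPM. Egr2, another zinc-finger factor, had none in mural cells, and was at least 4.84-fold lower than in other cartilage when 3 UMIs over all mural cells are taken as the floor. In blood cells Klf4 (0, 96.5 and 49.3 CPM, -4.14 ± 0.66) and Ier3, a gene of cell survival (0, 24.1 and 49.3 CPM, -3.89 ± 0.84), were among the lowest, with edgeR adjusted p of 0.000177 and 0.00207. Each blood value of 0 here is of the 3-month control library, with 12 cells, where it allows up to 184 CPM.

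Called members with smaller differences included Jun, the main partner of Fos, at 1159, 1031, 349 and 349.8 CPM in bone/stroma (-1.35 ± 0.43), Fosl2 at 44.3, 53.4, 15.5 and 19.6 CPM (-1.54 ± 0.37) and Rhob at 88.7, 88.2, 53.5 and 106 CPM (-1.63 ± 0.39). In mural cells Btg1, an antiproliferative gene, was at 285, 159, 396 and 179.7 CPM (-1.67 ± 0.34). In blood cells Btg2, its paralog, was at 647, 422 and 538 CPM (-1.42 ± 0.50) and Maff at 0, 24.1 and 58.3 CPM (-2.04 ± 0.63). The 0 of the 3-month control library allows up to 184 CPM, which overlaps Maff's range of 114 to 207 CPM in other cartilage. Among the heat-shock genes Hspa1a and Dnajb1 were lower in each of the 3 gates. Hspa1a was at 854, 132, 30.4 and 179.7 CPM in mural cells (-1.92 ± 0.65) and at 0, 440.4 and 103 CPM in blood cells (-2.68 ± 0.68), and Dnajb1 at 86.1, 123, 32.4 and 26.8 CPM in bone/stroma (-1.57 ± 0.39). The 3-month control mural cells overlapped other cartilage in Hspa1a.

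A few members did not follow. Dusp2 was the single member called higher, in blood (149, 84.5 and 255 CPM) and in bone/stroma (0, 61.5, 0 and 21.7 CPM), against 0 UMIs in other cartilage. Dusp2 passed the filter on low counts only through the sums of blood and bone/stroma, where it was high, so its call is a description and not a test. Over all libraries it was at least 833-fold higher in blood and at least 102-fold higher in bone/stroma, again with a floor of 3 UMIs. DESeq2 called it higher in neither. In bone/stroma all but 3 of its 74 UMIs came from cells that also carried Ptprc, and without those cells it was at 0, 0, 0 and 3.37 CPM. Klf6 was not called in any gate (-0.28 in endplate to 0.68 in blood), nor were Nr4a3, Egr3 and the chaperone Hsp90aa1 (-0.78 in mural cells to 0.18 in endplate). In bone/stroma Zfp36l1, the paralog of Zfp36, was at 361, 194, 286 and 493 CPM, within its range of 251 to 406 CPM in other cartilage for 2 of the 4 libraries (-0.10 ± 0.42, edgeR, adjusted p = 0.894).

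**Figure D3:**
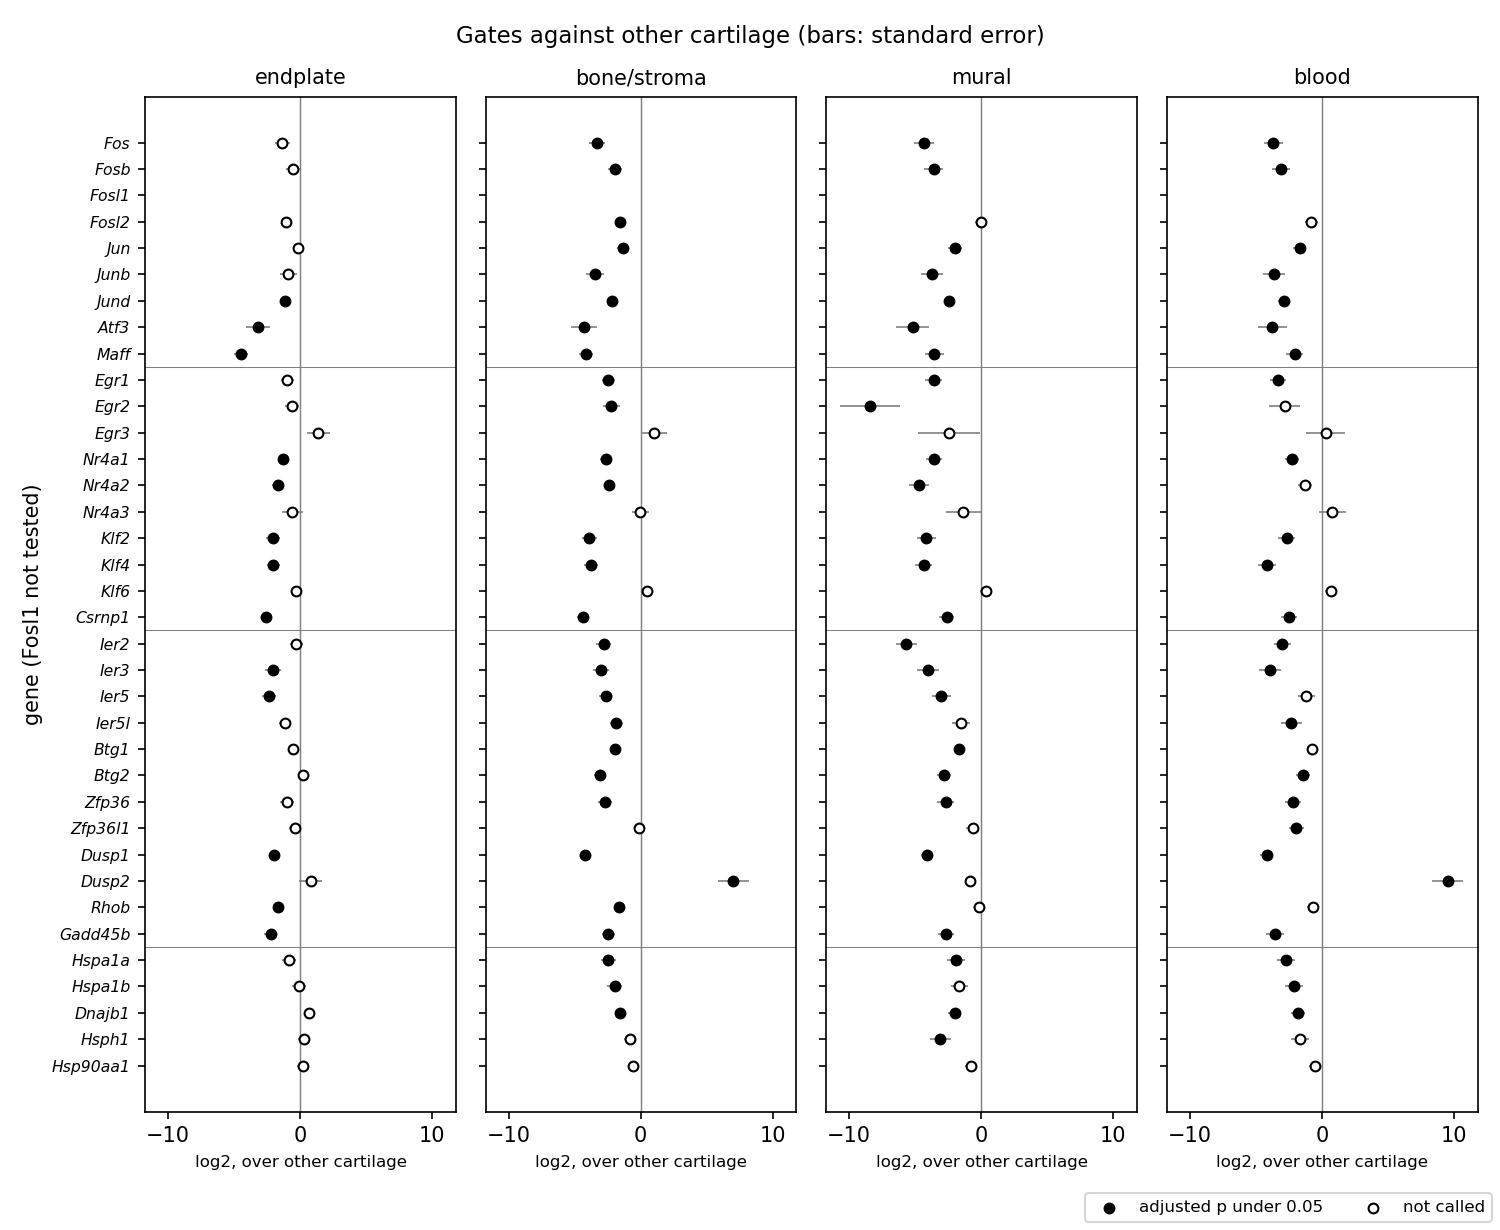
Log2 difference of each member between a gate and other cartilage (x axis), with standard errors where they could be computed, filled where edgeR's adjusted p is under 0.05. Filled points lie left of 0 for 13 members in endplate, 28 in bone/stroma, 25 in mural and 23 in blood, and right of 0 for Dusp2, whose fitted value depends on the prior count because other cartilage holds none of it.

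The mixed bone/stroma cells of the 3-month mutant library mattered for the heat-shock genes. Hsp90aa1, the inducible cytosolic Hsp90, was at 210, 1186, 204 and 168 CPM in bone/stroma, and at 210, 185, 88.6 and 138 CPM once cells with Ptprc were left out. Hspa1a (290, 479, 49.3 and 79.5 CPM) was at 291, 47.6, 19.3 and 60.6 CPM without them. The heat-shock share of other cartilage over bone/stroma in that library was 1.07 with the Ptprc cells and 8.78 without them (95% interval 6.80 to 11.5). A further setting left out cells of more than 1 gate, apart from those in endplate and other cartilage alone. In it 30 members were lower in bone/stroma and 1 was higher (1925 and 1813 of 10351 genes).

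Further genes of the same pathways were counted from lists, and of all genes tested 7.49%, 15.1%, 13.4% and 20.3% were lower in the 4 gates in the order below. Of 28 symbols of further immediate early genes, 27 named a gene, since Cyr61 is an older symbol of Ccn1, and 25 were tested. Of these, 13, 16, 16 and 15 were lower in endplate, bone/stroma, mural and blood cells, and 1 was higher in blood (Gadd45a). Socs3 (-2.99) and Nfkbia (-2.93), which tracked the list over cells, were among those lower in endplate. Of 16 further chaperone genes, 3, 4, 1 and 5 were lower, mostly the small heat-shock proteins Hspb1, Hspb8 and Cryab, and 1 was higher in mural cells (Hspb1). Of 10 glucocorticoid-induced genes, 3, 6, 4 and 7 were lower, with the metallothioneins Mt1 and Mt2 in each gate, and Fkbp5 was higher in endplate (1.29), Pdk4 in bone/stroma (3.16) and Klf9 in mural cells (1.47). Per1, Sgk1 and Errfi1 stand both here and among the further immediate early genes, and are counted in each list. Of 4 nuclear RNAs, 0, 3, 3 and 3 were lower, and Kcnq1ot1 was higher in endplate.

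Next, other cartilage, the gate with most cells, was compared between libraries. The question of the study was what loss of Nf1, a negative regulator of RAS, changes at each age, and many members are targets of RAS-MAPK signaling. The paper reports higher MAPK and proliferation scores in mutant endplate chondrocytes and osteoblasts at both ages. It also reports more tdTom+ cells with phosphorylated ERK, a MAP kinase, in mutant vertebrae at 3 months. Those are other measures in differently defined cells, and how the list relates to them was not tested. The list's share of UMIs was lower in the mutant than in the control library at both ages, with ratios of 0.781 (95% interval 0.774 to 0.787) at 3 months and 0.776 (0.764 to 0.787) at 12–16 months. The shares of single cells overlapped broadly, as given above. Of 33 members with at least 20 UMIs at both ages, 14 had an interval below 1 at both, where 3.12% of 10061 genes did. They were Fos, Jun, Junb, Jund, Atf3, Maff, Egr1, Csrnp1, Dusp1, Gadd45b, Ier2, Ier5, Rhob and Zfp36. Egr3, Hspa1b and Hsph1 had an interval above 1 at both ages (3.83% of genes). The UMIs of Egr3 came from few cells, as given below. Taken singly, 8 members were above and 20 below at 3 months, of 35 (19.5% and 18.7% of genes), and 5 above and 21 below at 12–16 months, of 33 (8.96% and 11.0%). These members have more UMIs than most genes, and intervals shorten with UMIs.

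Few members moved by more than 2-fold. At 3 months 1 of 35 was past 2-fold higher and 2 were past 2-fold lower in the mutant library (4.68% and 5.22% of 12468 genes). Atf3 was at 1715 CPM in control and 853 in mutant, a ratio of 0.497 (0.477 to 0.519), and Fosl1 at 9.95 and 2.94 CPM, a ratio of 0.296 (0.130 to 0.591). Egr3, an Egr factor of the nervous and immune systems, was at 2.36 and 14.4 CPM, a ratio of 6.10 (3.45 to 11.2), on 18 and 44 UMIs. These UMIs came from few cells, 1.69% of control and 3.40% of mutant other cartilage cells. Gadd45b, a stress-induced growth-arrest gene, lay just under the limit at 644 and 323 CPM, with a ratio of 0.502.

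At 12–16 months 2 of 33 members were past 2-fold higher and 2 past 2-fold lower in the mutant library (4.68% and 4.03% of 10096 genes). Nr4a1, the orphan receptor Nur77, was at 387 CPM in control and 182 in mutant (ratio 0.469, 0.406 to 0.541), and Ier5l at 76.5 and 33.6 CPM (0.439, 0.313 to 0.615). Hsph1 was at 31.2 and 87.5 CPM (2.80, 1.91 to 4.25). Egr3 was at 1.01 and 14.7 CPM (14.6, 2.43 to 594), with 1 UMI in the control library. Its 31 UMIs in the mutant library came from 2.27% of cells. Atf3 had a ratio of 0.651 at this age and Nr4a1 one of 0.996 at 3 months. The median member was at -0.24 and -0.39 on the log2 scale at the younger and the older age, against 0.00 and -0.03 over all genes.

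The AP-1 group was lower in the mutant library at both ages, with ratios of 0.707 (0.699 to 0.714) and 0.748 (0.733 to 0.763). The other factors had 0.854 and 0.722 and the feedback group 0.779 and 0.777. The summed heat-shock genes went the other way, with 1.18 (1.15 to 1.22) and 1.26 (1.18 to 1.34). Among them only Hspa1b and Hsph1 had an interval above 1 at both ages, and the ratio of the sum without Hspa1b was not computed. Hspa1b was at 515 and 876 CPM at 3 months and 305 and 582 CPM at 12–16 months, with ratios of 1.70 (1.62 to 1.79) and 1.91 (1.68 to 2.17). Hspa1a, its neighbor, was at 1047 and 1082 CPM and at 615 and 575 CPM, with ratios of 1.03 and 0.936. Hsp90aa1, at 480 and 524 and at 401 and 435 CPM, had ratios of 1.09 (1.03 to 1.16) and 1.08 (0.962 to 1.22), and Dnajb1, the Hsp40 partner of Hsp70, was at 211 and 175 and at 96.6 and 142 CPM, lower at one age and higher at the other. The mutant library was higher in the heat-shock group in endplate too, with ratios of 1.27 and 1.14, both with intervals above 1. In bone/stroma the ratios were 3.40 and 1.08, and without the cells carrying Ptprc they were 0.412 (0.310 to 0.539) and 2.02 (1.61 to 2.56), on opposite sides of 1.

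**Figure D4:**
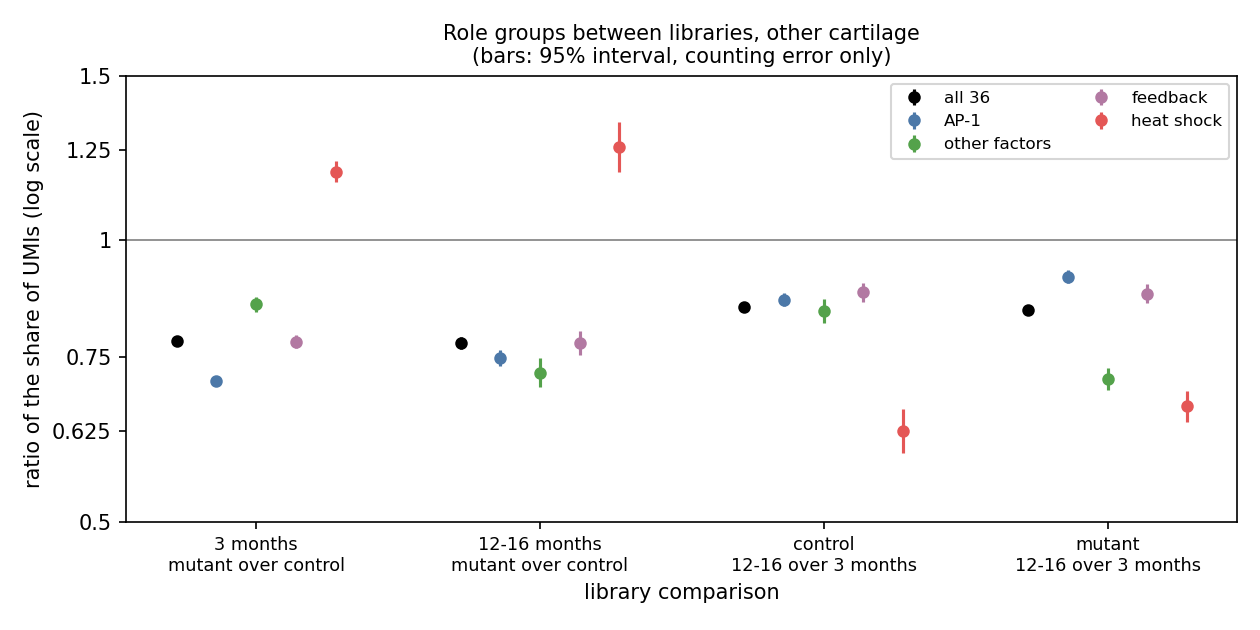
Ratio of the share of UMIs between libraries (y axis, log scale) in other cartilage, for all 36 genes and by role (color), with 95% intervals that cover counting error only. The heat-shock group lies above 1 in both mutant-over-control comparisons, where the other groups lie below, and below the others in both age comparisons.

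Hspa1a and Hspa1b differ in their 3′ ends, so the 3′ tags can tell them apart. No window of 91 bases among the last 500 of one transcript occurs in the other, although 49.1% and 52.0% of all such windows do. Hspa1b made up 33.0% of the UMIs of the pair in 3-month control other cartilage (3933 UMIs of Hspa1b and 7997 of Hspa1a; Clopper-Pearson interval 32.1 to 33.8), 44.7% in 3-month mutant, 33.2% in 12–16-month control and 50.3% in 12–16-month mutant (48.3 to 52.3). Both mutant libraries were above both control libraries. In endplate the shares were 44.3%, 55.9%, 53.1% and 60.9%, and the same order held within each age, with intervals that overlapped at 12–16 months (46.6 to 59.5 and 57.1 to 64.6). In bone/stroma they were 34.4%, 54.8%, 58.8% and 51.6%, without that order, on 120, 501, 50 and 82 UMIs of Hspa1b. Without the cells carrying Ptprc, bone/stroma had 120, 3, 8 and 67 UMIs of Hspa1b and 229, 9, 12 and 54 of Hspa1a, too few in 2 libraries to place them. The promoters of the pair, shown above, hold the same GAANNTTC match and differ at 3 bases.

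**Figure D5:**
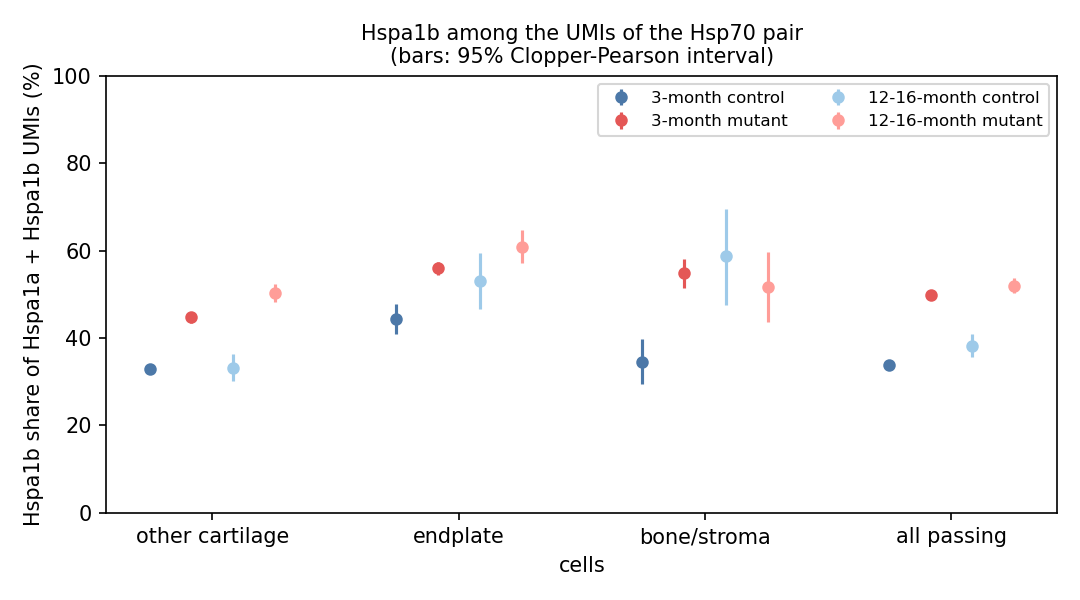
Hspa1b as a percentage of the UMIs of Hspa1a and Hspa1b (y axis) by cells (x axis) and library (color), with 95% Clopper-Pearson intervals. In other cartilage the mutant libraries lie at 44.7% and 50.3% and the control libraries at 33.0% and 33.2%, whereas bone/stroma shows no such order.

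With age the list's share was lower in both genotypes, at ratios of 0.848 (0.838 to 0.858) in control and 0.843 (0.833 to 0.852) in mutant libraries. These comparisons use the same 4 libraries as those above. The heat-shock group had the lowest ratios of the 4 roles, 0.626 (0.592 to 0.660) and 0.664 (0.639 to 0.690). AP-1 stood at 0.864 and 0.914, the other factors at 0.841 and 0.711 and feedback at 0.879 and 0.877. Of 34 members, 7 had an interval above 1 and 23 below in control (12.5% and 9.11% of genes), and 4 above and 24 below in mutant libraries (13.2% and 15.1%). No member was past 2-fold higher in either (6.10% and 4.02% of genes). In control libraries Nr4a3, Egr2, Dnajb1 and Hsph1 were past 2-fold lower (4 of 34; 5.51% of 12059 genes). Dnajb1 went from 211 to 96.6 CPM (0.457, 0.368 to 0.562), Hsph1 from 64.0 to 31.2 CPM (0.487, 0.328 to 0.701), Egr2 from 32.9 to 14.1 CPM and Nr4a3 from 14.1 to 6.04 CPM.

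In mutant libraries the 3 members past 2-fold lower at 12–16 months were the NR4A receptors (3 of 34; 3.88% of 11095 genes), orphan nuclear receptors that act without a known ligand. Nr4a1 went from 440 to 182 CPM (0.413, 0.368 to 0.463), Nr4a2 from 214 to 91.7 CPM (0.428, 0.363 to 0.503) and Nr4a3 from 24.8 to 6.15 CPM (0.248, 0.126 to 0.449). In control libraries the same genes had ratios of 0.877, 0.591 and 0.427. Zfp36 was higher at 12–16 months in both, at 1.24 (1.16 to 1.32) and 1.29 (1.21 to 1.38). Dcn, a matrix proteoglycan gene used as a fibroblast marker, moved with age in the same gate, from 6164 and 4505 CPM at 3 months to 14916 and 14941 CPM, while the summed chondrocyte markers stayed between 12818 and 15688 CPM. Of the other fibroblast markers, Dpt was at 10.5 to 45.3 CPM and Pi16 at 0 in each library. Their part in the age result was not tested.

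Cell depth moved with these comparisons as well, since median UMIs in other cartilage ran from 12581 to 7614. Among cells above 15000 UMIs the list's pooled shares were 2.80%, 2.10%, 1.96% and 1.72%, lower in the mutant library at both ages. The per-cell medians there were 2.21% (182 control cells) and 0.988% (69 mutant cells) at 3 months. At 12–16 months they were nearly equal, at 1.16% (16 control cells) and 1.15% (35 mutant cells). The median member in these older deep cells was at -0.09 on the log2 scale, with 15 members above 0 and 18 below, against 0.007 over all genes. Between 5000 and 15000 UMIs the pooled shares were 4.24%, 3.25%, 3.75% and 2.48%. Up to 5000 UMIs the mutant library was above the control library at 12–16 months, at 3.37% (47 cells) against 1.17% (8 cells), and below it at 3 months. In endplate the list was lower in mutant than control at 3 months (0.639, 0.628 to 0.650) but higher at 12–16 months (1.19, 1.14 to 1.23), where the control library had 12 cells. Fos there was at 4632 and 2005 CPM at 3 months and 1433 and 1821 CPM at 12–16 months. Bone/stroma without the Ptprc cells had ratios of 0.450 (0.420 to 0.481) and 1.20 (1.13 to 1.27), so the lower share at both ages held in other cartilage and not in these gates.

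The other pathway lists gave the following counts past 2-fold in other cartilage between mutant and control libraries. Of 25 further immediate early genes measured, 0 were higher and 1 lower at 3 months and 3 higher and 2 lower at 12–16 months, with medians of -0.38 and -0.18 on the log2 scale. Of all genes, 4.68% were past 2-fold higher at each age, and 5.22% and 4.03% lower. None of the 16 further chaperones was past 2-fold at 3 months and 1 was lower at 12–16 months, with medians of -0.11 and -0.02. Of the glucocorticoid-induced genes, 5 of 10 at 3 months and 2 of 9 at 12–16 months were past 2-fold higher in the mutant library and none was past 2-fold lower, with medians of 0.89 and 0.79. This list shares Per1, Sgk1 and Errfi1 with the further immediate early genes. It also holds Zbtb16, which the paper treats as an osteogenic gene and reports as higher in mutant osteoblasts and endplate chondrocytes. The sources used here give no hormone or stress state of the mice.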

How the data were processed

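Single-cell RNA-seq of sorted tdTom+ cells was made with the 10x 3′ kit. The authors aligned reads to mm10 with an added tdTomato sequence in Cell Ranger 8.0.0 and deposited raw UMI counts per gene and cell, which were used as deposited. The annotation release is not given in the sources used here, and the later ambient correction and integration of the study were not repeated. Passing cells exceeded 750 UMIs and 500 genes and had under 7% of UMIs from mitochondrial genes. No doublet caller was run, and cells meeting more than 1 gate were left out in an alternative. Cells that met the endplate and other cartilage gates alone stayed in that alternative. UMIs were summed per library and gate of at least 5 cells and fitted with library and gate in edgeR 4.0.16 (R 4.3.3) by the quasi-likelihood test, called at an adjusted p under 0.05 by Benjamini-Hochberg. Genes that define the gates were left out of the test. Libraries were compared by CPM ratios with exact conditional binomial 95% intervals and no test, among genes with at least 20 UMIs over both. Alternatives were DESeq2 1.42.0, other scalings, filters and cells, and leaving out each library. Scripts were tested on simulated counts. By rule, the text names up to 6 called members with the highest and 4 with the lowest log2 difference per gate, up to 5 highest and 5 lowest past 2-fold per library comparison, the heat-shock genes, the member with the highest CPM of each role, and the 10 genes most like the list, of which 1 is not reported here; the highest called members are named in part, and other named members were chosen after their values were seen. The members and lists were chosen with earlier results of these data known.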

Additional observations from a re-analysis of the deposited data

Results flagged for a closer look

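Between mutant and control other cartilage, 4 members lay on opposite sides of 0 at the younger and the older age, each with an interval that excluded no difference, and the difference between ages was not tested. Egr2 was at -0.46 on the log2 scale at 3 months and 0.88 at 12–16 months, on 251 and 73 UMIs and on 14 and 55 UMIs. Btg1, an antiproliferative gene, was at 0.38 and -0.25, and Zfp36l1 at 0.28 and -0.70. Dnajb1 was at -0.27 and 0.55. In endplate the list's share had a mutant-over-control ratio of 0.639 at 3 months and 1.19 at 12–16 months, also not tested.

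Cells that met no gate, which the gate comparisons did not use, held the list at 2.41%, 2.09%, 2.66% and 2.00% of UMIs in library order. The limits that a count of 0 allows were 0.00114%, 0.00159%, 0.00355% and 0.00159%. A sum over many abundant genes would pass these limits in any case, so they decide nothing. The median cell lay below the pooled share in each library, from 0.271% (3-month control) to 1.76% (12–16-month control).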

How the results depend on the processing

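Of the main counts and list shares under the alternatives, 73 were classed as the same and 25 as moved. A count classed as the same need not have an equal value. Of single genes, 754 were classed as the same, 114 moved, 14 gained and 26 lost the threshold, and 8 reversed. Among counts classed as the same, 18 members were lower in mural cells without the 12–16-month mutant library, against 25 (822 of 11128 genes). In bone/stroma 23 were lower and 1 was higher without it, against 28 and 1 (1352 and 1406 of 11128 genes). The causes were not tested. Members called in endplate, all lower, numbered 6 to 12 without 1 library, where 504 to 904 of all genes were lower, against 13. In cells above 15000 UMIs (chosen after seeing the data) they numbered 4, where 353 of 8288 genes were lower. Members called in blood numbered 14 to 23 without 1 library, against 24, where 676 to 1268 of all genes were higher and 1152 to 2053 lower. Hspa1b in endplate, at -0.07, was at 0.24 above 15000 UMIs and ranged from -0.17 to 0.01 (0.0079) without 1 library.

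Members past 2-fold in other cartilage at 3 months were 3. Over all passing cells they were 11, with 3 higher and 8 lower (2127 and 792 of 14551 genes). Above 15000 UMIs they were 5, with 1 higher and 4 lower (699 and 803 of 11215 genes). At 12–16 months they were 8 above 15000 UMIs, 5 higher and 3 lower (586 and 428 of 7082 genes), against 4. With age in control they were 14 over all passing cells, all lower (642 of 13418 genes), against 4. With age in mutant they were 7 over all passing cells, 1 higher and 6 lower (1017 and 784 of 14216 genes), against 3. Above 15000 UMIs they were 6, all lower (601 of 9047 genes). The list's log2 ratio at 3 months, -0.36, was -0.57 as a median over cells, -0.67 over all passing cells and -0.41 above 15000 UMIs. At 12–16 months, -0.37 became -0.46, -0.18 and -0.19, and -0.44 above 5000 UMIs. With age in control, -0.24 became -0.80, -0.85 and -0.51, and -0.21 above 5000 UMIs. With age in mutant, -0.25 became -0.70, -0.35 and -0.29, and -0.30 above 5000 UMIs. Dnajb1 at 3 months was at 0.40 over all passing cells and 0.25 above 15000 UMIs, and at 12–16 months at -0.01 (-0.00701) over all passing cells. Egr1 with age in control, at 0.13, was at -0.00137 with TMM factors, -0.52 over all passing cells and -0.24 above 15000 UMIs. TMM factors moved the median of all genes in that comparison from 0.05 to -0.09.

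No paired analysis was possible because each group holds 1 library, so that the groups share a single replicate number, and the gate fit already has library as a term. A fit of genotype with age as a term was not made. Depth limits Fosl1, Egr3 and Nr4a3, and 12 endplate and 2 mural cells limit the 12–16-month control library. In the 3-month control library the blood gate is limited by its 12 cells with 20102 UMIs.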

Other observations

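Some genes outside the list, chosen after their values were seen, ran opposite to it across other cartilage cells. Spearman's rho with the list's share was -0.43 to -0.37 for mt-Cytb, a mitochondrial respiratory gene, over the 4 libraries, -0.44 to -0.33 for Mgp, an inhibitor of calcification, and -0.39 to -0.26 for Col2a1. Shares of 1 total must balance, and cells of 1 library share its handling, so these are descriptions.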
